A study of Mus musculus with 8 samples.

Results

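Late morulae in which Rbbp4 and Rbbp7 were both knocked down were compared with late morulae in which Rbbp4 alone was knocked down, to measure what the loss of Rbbp7 adds when Rbbp4 is already low. The comparison uses 4 of the 8 libraries of the series, the 2 libraries of the double knockdown and the 2 of the Rbbp4 knockdown. It covers the 12565 genes whose normalized abundance averaged at least 10 over all 8 libraries, of 19058 genes in the deposited table. Just inside that limit lay Sp9 (mean 10.01) and just outside it Myod1 (mean 9.999).

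In both groups mouse zygotes were injected with small interfering RNA (siRNA), a short double-stranded RNA that directs the breakdown of the matching messenger RNA. The Rbbp4 knockdown received siRNA against Rbbp4, and the double knockdown received siRNAs against Rbbp4 and Rbbp7, so Rbbp4 siRNA is common to both. The other 4 libraries, used for the shared estimate of spread and for values set beside these, came from zygotes given Rbbp7 siRNA alone (the Rbbp7 knockdown) or a non-specific siRNA (the control). All embryos were collected as late morulae, 78 h after fertilization, and polyadenylated RNA was sequenced. The strain, the amount of siRNA and the number of embryos per library were not given in the sources used here. Nor do the labels say that replicate libraries were made from different embryo pools, and p-values then reflect only library-to-library spread, which may be technical. Transcripts were measured, and protein was not.

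RBBP4 and RBBP7 are closely related WD-repeat proteins that bind histones H3 and H4. They are shared subunits of several chromatin complexes: the nucleosome remodelling and deacetylase complex NuRD, the SIN3 corepressor, Polycomb repressive complex 2 (PRC2) and, mainly for RBBP4, the histone chaperone CAF-1 and the MuvB core of the DREAM complex, which represses cell cycle genes. RBBP7 is the partner of the histone acetyltransferase HAT1. At the late morula stage outer cells turn towards trophectoderm, the epithelium that will form the placenta and pump fluid into the blastocyst cavity, while inner cells keep pluripotency genes active.

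Both targeted transcripts matched the labels. Rbbp7 (GRCm38 chrX:162760402-162779092), the gene whose siRNA separates the groups, stood at 6696 and 6295 normalized abundance units in the Rbbp4 knockdown and at 327 and 266 in the double knockdown. It fell to 4.56% of its level, a log2 difference of −4.46 ± 0.14 (standard error; adjusted p = 1.31e-06, limma with Benjamini-Hochberg adjustment). Rbbp4 (GRCm38 chr4:129307100-129335370) stood at 402 and 343 in the Rbbp4 knockdown and at 348 and 433 in the double knockdown, against 5300.1 and 4710.0 in the control. The ranges of the knockdown groups overlapped for Rbbp4 (log2 difference 0.06 ± 0.15, adjusted p = 0.928), so residual Rbbp4 differed by less than the spread between libraries. Part of the Rbbp4 sequence is near-identical (at least 97% over 200 or more bases) to another gene of the table. The same is the case for St6galnac2, Mtf2, Prc1, Ccnd1, Atp1b1, Elovl6, Ndufa12 and Nkx6-2 named below, and such values are uncertain. Genes that overlap on the genome were not left out of this search. All of these genes except Elovl6 and Ndufa12 have an overlapping gene in the table, so the match may be that overlap and not a separate copy. The plot of abundance by library shows both genes beside 10 others described below.

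**Figure D1:**
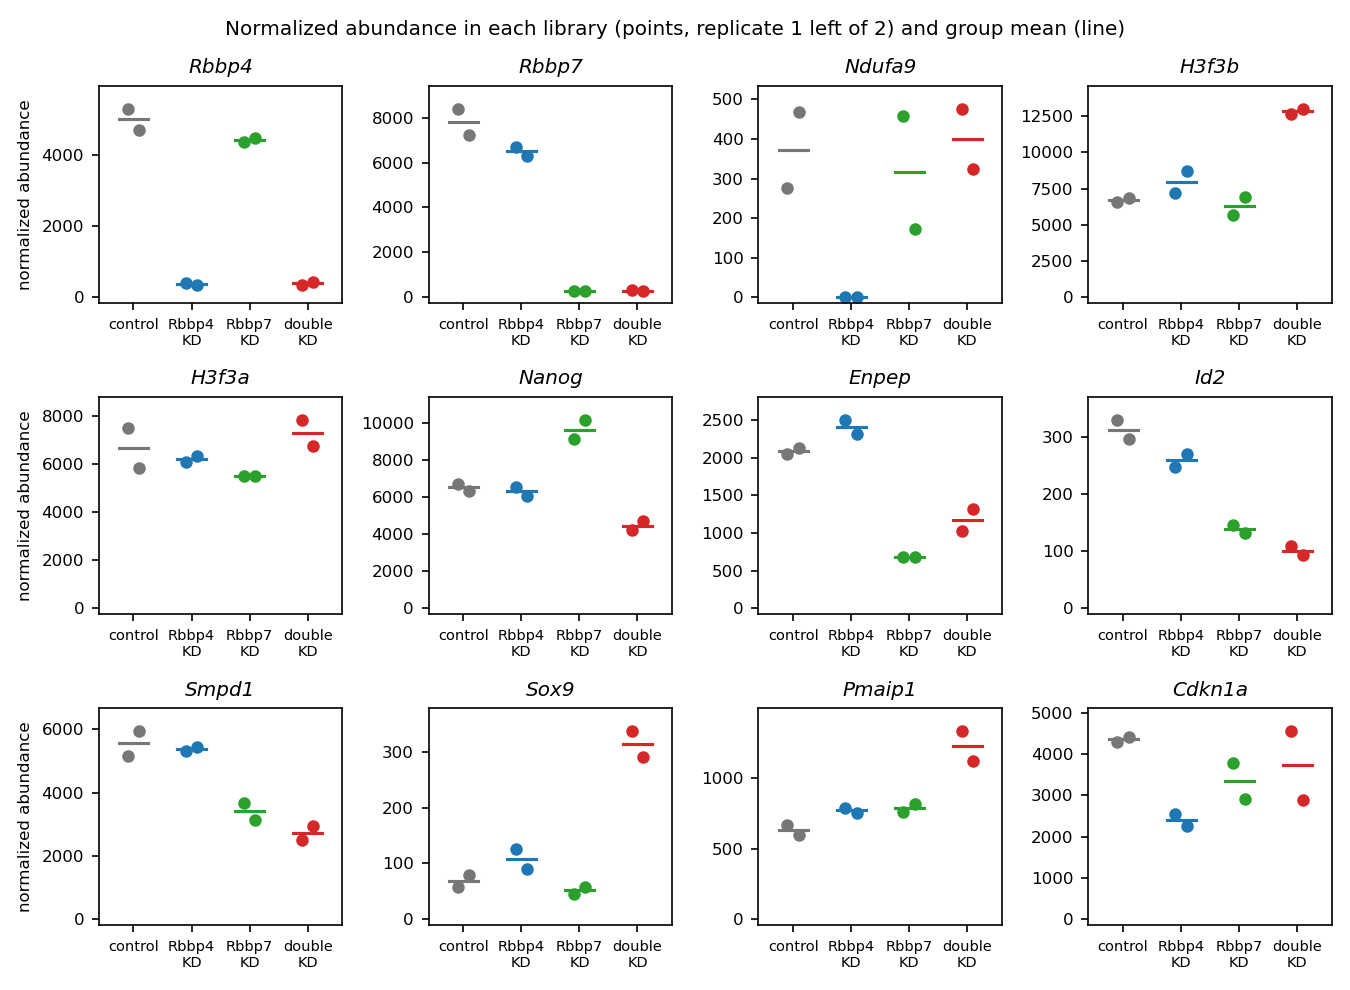
Normalized abundance (linear axis from 0, separate scale per gene) of 12 genes in the 8 libraries; points are single libraries and lines are group means. Rbbp7 is at 327 and 266 in the double knockdown, Ndufa9 is at 0 in both Rbbp4 knockdown libraries, and H3f3b and Sox9 are highest in both double knockdown libraries, while Enpep, Id2 and Smpd1 are low in both groups given Rbbp7 siRNA.

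Totals of normalized abundance in the 4 libraries ranged from 11334107 to 11729642; read depth is unknown, because the deposited values are normalized. Across genes the double knockdown libraries correlated less with each other (r = 0.946) than the Rbbp4 knockdown libraries did (r = 0.964), and their mean within-group variance on the log2 scale was 0.335 against 0.232. Double knockdown replicate 1 stood apart in Y-linked genes: Ddx3y had 71.8 there and 519 to 1022 in the remaining 7, and Usp9y had 8.45 there and 79.2 to 165 elsewhere. Eif2s3y had 71.0 there and 327 to 680 elsewhere, and Uty 20.6 there and 72.5 to 163 elsewhere. Kdm5d, at 110.3, lay within the range of 108 to 167 elsewhere. The median of 433 X-linked genes, Rbbp7 left out, was 0.19 on the log2 scale above the Rbbp4 knockdown mean in that replicate and 0.06 below it (−0.06) in replicate 2. The part of this in the results below was not tested, and list medians are given with each of the 4 libraries left out in turn. Double knockdown replicate 2 had 5.53% of its abundance in mitochondrial transcripts against 4.26% to 4.70% in the other 3.

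Of 15 markers of the embryo's own lineages and junctions, 10 were above 1000 in all 4 libraries, among them Cdx2, Gata3, Pou5f1, Nanog, Gata6 and Cdh1, and the other 5 were lower: Eomes at 148 to 250.1, Sox2 at 67.5 to 208, Pdgfra at 208 to 379, Gata4 at 50.1 to 145 and Sox17 at 20.3 to 84.0. Defining markers of sperm (Prm1, Prm2, Tnp2 and Odf1) and stroma (Col1a1 and Col3a1) were at or under 8.45, and of oviduct markers Foxj1 was at or under 6.30 and Ovgp1 at 9.71 to 18.9. Of blood markers, Hba-a1 stood at 6.70 to 24.4 and Alas2 at or under 1.45. The cumulus and granulosa cell list, with 10 of 20 members in the table, summed to 501 and 343 in the double knockdown against 206.0 and 251.4 in the Rbbp4 knockdown. Its defining markers Amh and Inha were at or under 6.29 in these libraries, while Foxl2 stood at 101 and 74.4 against 28.6 and 33.8, and Vcan at 113 and 6.59 against 0.49 and 0, high in 1 library. Of the 4 tested members of this list, 3 were higher at an unadjusted p below 0.05 and 0 lower, where 4.83% of all genes were higher. These were Foxl2, Vcan and Hsd17b1, the last at 241 and 201 against 133 and 148. Whether cells other than those of the embryo contribute to the differences below was not tested. In whole embryos, fewer cells of a type and less RNA per cell cannot be told apart.

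Of the 12565 genes, 2 differed between the groups at an adjusted p below 0.05 (0.0159%). In the double knockdown 1 was higher and 1 lower (0.00796% each). The lower one is Rbbp7 itself. The higher one is Ndufa9 (GRCm38 chr6:126821721-126849136), a subunit of mitochondrial complex I, with a listed value of 0 in each Rbbp4 knockdown library, which stood at 476 and 323 in the double knockdown (adjusted p = 0.000113, limma with Benjamini-Hochberg adjustment). It was present in the remaining groups too, at 276 and 468 in the control and 459 and 172 in the Rbbp7 knockdown. The Rbbp4 knockdown was thus the group that stood apart for Ndufa9, and it also differed from the control (adjusted p = 0.00013, limma with Benjamini-Hochberg adjustment). With Rbbp7 siRNA alone the log2 difference of Ndufa9 from the control was −0.35 ± 0.48. No fold is given against a group listed at 0. The 72 tested nuclear genes of oxidative phosphorylation, Ndufa9 among them, had a median log2 difference of −0.0049 (−0.06 to 0.05 with each of the 4 libraries left out), with 35 positive and 37 negative, and Ndufa10 and Ndufa12, other complex I subunits, differed by −0.29 and 0.26. In all, 5 genes had an adjusted p below 0.10 and 44 below 0.20, and 607 genes were higher (4.83%) and 596 lower (4.74%) at an unadjusted p below 0.05. Values without overlap between the groups occurred in 2623 genes that were higher (20.9%) and 2699 that were lower (21.5%). Among genes with a mean of at least 50 in the higher group and no overlap, 244 were at least 2-fold higher (1.94%) and 92 at least 2-fold lower (0.732%) on the log2(value + 1) scale. With 2 libraries against 2, an exact two-sided permutation test of 1 gene cannot go below p = 0.333.

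**Figure D2:**
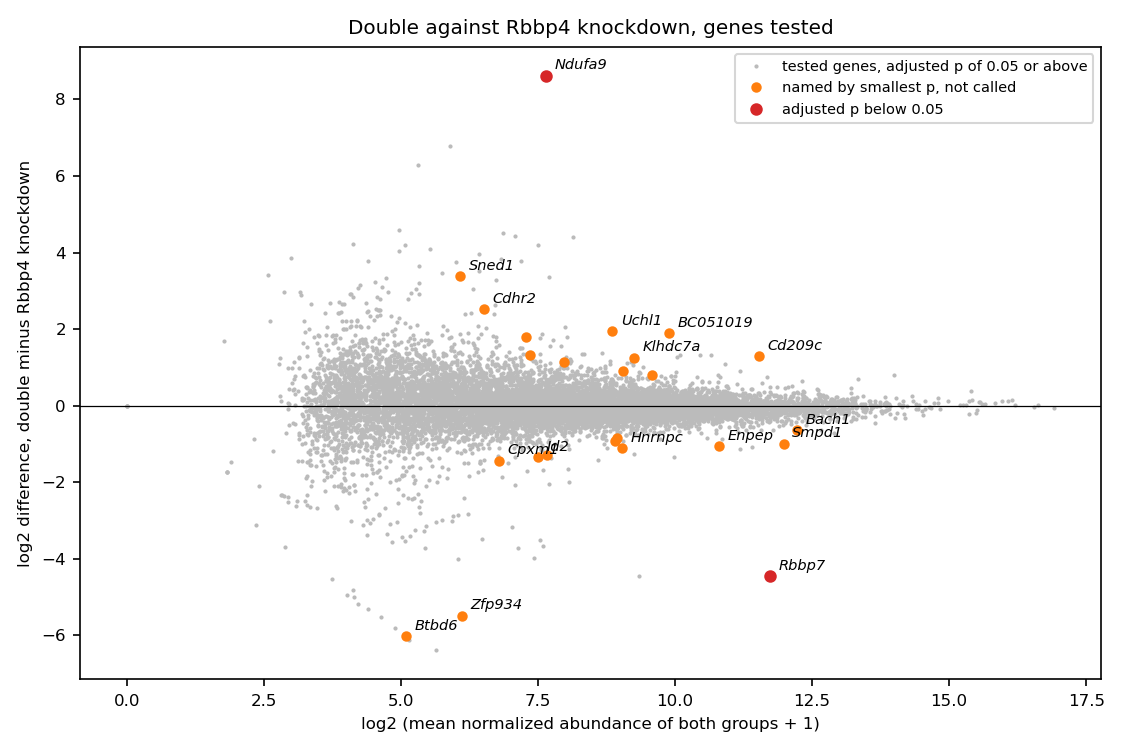
Log2 difference (double minus Rbbp4 knockdown, vertical axis) against mean log2 abundance of the 2 groups (horizontal axis) for the 12565 genes tested. Rbbp7 and Ndufa9, in red, are the genes with an adjusted p below 0.05; the genes in orange had the next smallest p-values among named genes without overlap and did not pass.

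The genes with the next smallest p-values that were higher in the double knockdown did not pass the test. They were named only from genes without overlap between the groups, which were 20.9% of all genes on the higher side. Klhdc7a, a kelch-domain protein, stood at 356 and 358 in the Rbbp4 knockdown and 987 and 741 in the double knockdown (log2 difference 1.26 ± 0.18, adjusted p = 0.101). BC051019 had 303 and 508 against 1786 and 1197 (1.90 ± 0.28, adjusted p = 0.111). Cd209c, a C-type lectin of the DC-SIGN family, had 1685 and 1681 against 5139 and 3289 (1.29 ± 0.20, adjusted p = 0.111). For these 3 genes both double knockdown libraries lay above all 6 others, whose ranges were 276 to 358 for Klhdc7a, 220.2 to 508 for BC051019 and 1100.1 to 1685 for Cd209c. Uchl1, a ubiquitin hydrolase best known from neurons and germ cells, stood at 188 and 192 against 753 and 718 (1.94 ± 0.30, adjusted p = 0.111), with the Rbbp7 knockdown in between at 325 and 518. Ciita, the transactivator of MHC class II genes, had 50.6 and 89.6 against 224 and 252, and the tetraspanin Cd81 had 154 and 156 against 311 and 380.2, with adjusted p-values of 0.157 and 0.162. Both were also higher with Rbbp7 siRNA alone. Ciita was at 138 and 147 there against 79.0 and 80.2 in the control, and Cd81 at 240 and 245 against 130 and 119. The small heat shock protein gene Hspb1 stood at 374 and 366 against 645 and 744, but it shares at least 97% of 200 or more bases with 2 other genes of the table, so its value is uncertain. From a low level, Sned1, which encodes an extracellular matrix protein, had 7.62 and 14.7 against 144 and 101, and Cdhr2, a protocadherin of brush border microvilli, 24.9 and 27.5 against 168 and 143. Sned1 shares near-identical sequence with 1 gene of the table. Exons of Mterf4 overlap 19.5% of its exon bases, so this may be an overlap and not a copy.

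On the lower side, the genes with the smallest p-values did not pass the test either. Enpep, a membrane aminopeptidase, stood at 2508 and 2311 in the Rbbp4 knockdown and 1029 and 1317 in the double knockdown, 48.7% of the former (log2 difference −1.05 ± 0.14, adjusted p = 0.0895). Smpd1, the lysosomal acid sphingomyelinase, had 5319 and 5455 against 2505 and 2943 (−0.99 ± 0.13, adjusted p = 0.0895); the lysosome list as a whole had a median of −0.05 (−0.081 to −0.0025 with each library left out), with 17 members positive and 22 negative. Id2, which blocks DNA binding by E proteins and marks early trophectoderm, had 248 and 270.2 against 108 and 93.8 (−1.35 ± 0.21, adjusted p = 0.111). These 3 were also low after Rbbp7 siRNA alone: Enpep was at 681 and 680.4 against 2056 and 2135 in the control, Smpd1 at 3689 and 3139.7 against 5161 and 5960.5, and Id2 at 145 and 132 against 330.3 and 296. Cpxm1, a carboxypeptidase-like protein, followed the same order, at 149.7 and 169 against 53.9 and 63.2 here and 247 and 207 against 86.2 and 77.4 without Rbbp4 siRNA.

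For another set of genes the double knockdown was the lowest group. E2f2, a transcription factor that drives S-phase genes, stood at 283 and 289.6 against 132 and 105 (−1.28 ± 0.20, adjusted p = 0.111), and the other 6 libraries ranged from 224 to 289.6. Bach1, a haem-regulated repressor, had 5897 and 5787 against 3729.7 and 3738 (−0.65 ± 0.10), with 4929.8 to 5897 elsewhere. St6galnac2, a sialyltransferase, had 654 and 602 against 332 and 364 (−0.85 ± 0.14), with 602 to 682 elsewhere. Hnrnpc, a nuclear RNA-binding protein, had 756 and 671 against 381 and 285; it shares near-identical sequence with 1 other gene of the table, so its value is uncertain. Btbd6, a BTB-domain adaptor of the cullin 3 ubiquitin ligase, had a listed value of 0 in each double knockdown library and stood at 48.1 and 84.0 in the Rbbp4 knockdown (adjusted p = 0.0802). Its values in the control were 15.2 and 71.1, so low values of this gene also occur there.

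The series title names histone H3.3, the replacement variant of histone H3 that is loaded outside DNA replication. H3f3b (GRCm38 chr11:116021912-116027962), 1 of the 2 genes that encode it, stood at 7184 and 8728 in the Rbbp4 knockdown and at 12632 and 13024 in the double knockdown, 1.61 times as high (log2 difference 0.70 ± 0.13, adjusted p = 0.187). Both double knockdown libraries lay above all 6 others, which ranged from 5671 to 8728. Without Rbbp4 siRNA the difference with Rbbp7 siRNA was −0.10 ± 0.13, and the test of the difference between these 2 values gave 0.80 ± 0.19 with an adjusted p of 0.593, so it did not pass. H3f3a, the other H3.3 gene, had 6073 and 6321 against 7833 and 6723, without overlap and with a smaller difference (0.23 ± 0.14, adjusted p = 0.632). Near-identical copies of both genes are in the table, 1 for H3f3b and 4 for H3f3a, so their values are uncertain.

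The chaperones that load H3 showed small differences. Hjurp, which loads the centromeric variant CENP-A, had 2278 and 2208 against 1769 and 1773 (−0.34 ± 0.11, adjusted p = 0.401). Hira, the chaperone of H3.3, had 1059 and 1183 against 1429.9 and 1152; Asf1a, which hands H3 and H4 to other chaperones, 349.9 and 337 against 299 and 463; and Chaf1a, the large CAF-1 subunit, 858 and 909 against 945 and 893. The groups of these 3 overlapped, and exons of other genes overlap 44.7% to 52.5% of their exon bases, which matters if strand was not used in counting. Over the 17 tested members of the H3.3 and H3 chaperone list the median log2 difference was 0.02 (−0.02 to 0.04 with each of the 4 libraries left out), against −0.0033 for all genes tested. Among linker histones and H2A variants, 6 of 8 tested members were higher and 0 lower without overlap, against 20.9% and 21.5% of all genes. H1f0, a linker histone of differentiating cells, had the smallest p of that list, at 369 and 287 against 555 and 482 (0.67 ± 0.21, adjusted p = 0.376).

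Of the genes for the complexes that contain RBBP4 and RBBP7, 0 passed the test apart from Rbbp7. In PRC2, which trimethylates lysine 27 of H3, 8 of 10 subunit genes were lower, with a median of −0.16 (−0.20 to −0.13 with each library left out). Mtf2, the Polycomb-like subunit that recruits PRC2 to CpG islands, stood at 4619 and 4452 against 3142 and 3097 (−0.54 ± 0.11, adjusted p = 0.188). Ezh2, the catalytic subunit, had 1846 and 2008 against 1661 and 1456 (−0.31 ± 0.12, adjusted p = 0.471). Jarid2, a substrate-binding accessory subunit, had 9804 and 9335 against 8385 and 8069, while Eed, the core subunit that binds trimethylated H3, overlapped between groups at 1554 and 1929 against 1864 and 1520.4. In NuRD, 7 of 13 subunit genes were higher and the median was 0.04 (−0.07 to 0.15 with each library left out). Its ATPase Chd4 had 3802 and 4682 against 2911 and 3491 (−0.40 ± 0.14, adjusted p = 0.423), while the deacetylase gene Hdac2 was at 3032 and 3133 against 3616 and 3953 (0.29 ± 0.13). The groups of Mtf2, Ezh2, Jarid2, Chd4 and Hdac2 did not overlap. Without overlap, 6 of 10 PRC2 genes were lower and 0 higher, and 3 of 13 NuRD genes were higher and 1 lower. Of all genes, 20.9% were higher and 21.5% lower without overlap. Hdac1 had 3362 and 3671 against 3779 and 3909.6, a difference of 0.13 ± 0.11, where Rbbp7 siRNA alone gave 5519 and 5804 against 3726 and 3979 in the control; 2 near-identical copies of Hdac1 are in the table. The medians were 0.08 over 14 SIN3 subunits (−0.01 to 0.08 with each library left out) and −0.07 over 10 partners in CAF-1, HAT1, NURF and MuvB (−0.14 to 0.09), so neither kept its sign. In these lists 0 members had an unadjusted p below 0.05, where 9.57% of all genes did, a share that in lists of this size is about 1 gene each.

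Genes activated by p53, the transcription factor that halts the cycle or starts apoptosis after damage, were mostly higher in the double knockdown. Of 38 tested members of that list, 32 were higher, and 24 were higher and 0 lower without overlap, against 20.9% and 21.5% of all genes. At an unadjusted p below 0.05, 10 were higher (26.3%) and 0 lower, where 4.83% of all genes were higher. The median log2 difference was 0.23, and it was 0.19 to 0.30 when each of the 4 libraries was left out. None passed the adjusted test. Pmaip1, which encodes the apoptosis activator NOXA, stood at 793 and 751 in the Rbbp4 knockdown and 1338 and 1125 in the double knockdown (0.67 ± 0.14, adjusted p = 0.221). Zmat3, an RNA-binding target of p53, had 1691 and 1583 against 2430.0 and 2236 (0.51 ± 0.14), and Mdm2, the ligase that limits p53, 2030.0 and 2023 against 3003 and 2530.3 (0.44 ± 0.13). Ak1, an adenylate kinase, had 163 and 128 against 269 and 293 (0.95 ± 0.26). All 4 were without overlap. Cdkn1a, the cyclin-dependent kinase inhibitor p21, had 2539 and 2252 against 4561 and 2884 (0.60 ± 0.21, adjusted p = 0.43), and the control stood at 4284 and 4415. Rbbp7 siRNA alone gave the p53 list a median of 0.20 against the control.

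Genes of G2 phase and mitosis were mostly lower. Of 59 members, all tested, 52 were lower, 24 of them without overlap, and 2 were higher without overlap, against 21.5% and 20.9% of all genes. Of the lower members 9 had an unadjusted p below 0.05 (15.3%), against 4.74% of all genes on the lower side. Individual differences were small: the median was −0.16, and 0 members passed the adjusted test. Left out in turn, the 4 libraries gave medians of −0.21 to −0.11 and 45 to 50 lower members. Rbbp7 siRNA alone gave a median of −0.05. The 3 members with the smallest p were Prc1, which bundles microtubules of the central spindle, at 2790.2 and 2811 against 2195 and 1849 (−0.48 ± 0.12, adjusted p = 0.269); the condensin subunit Ncapd2, at 1272 and 1359 against 958 and 889 (−0.51 ± 0.15, adjusted p = 0.358); and the kinetochore scaffold Knl1, at 682 and 606 against 419 and 422 (−0.61 ± 0.21, adjusted p = 0.422). Cdk1, the mitotic kinase, overlapped between groups at 1939.7 and 2237 against 2113 and 2308.

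Many promoters of such genes carry the cell cycle genes homology region (TTTGAA), through which MuvB binds DNA, and CCAAT boxes (CCAAT), bound by NF-Y. The promoters of the 3 genes named above are printed because they were the list members with the smallest p. They are from RefSeq (GRCm38.p6), from 250 bases before to 50 after the annotated start, 5′ to 3′ on the gene's strand, at chr7:80294201-80294500 (plus strand), chr6:125191537-125191836 (minus strand) and chr2:119046869-119047168 (plus strand). Capitals mark TTTGAA and CCAAT on either strand, so that TTCAAA and ATTGG are also capitals.
Prc1: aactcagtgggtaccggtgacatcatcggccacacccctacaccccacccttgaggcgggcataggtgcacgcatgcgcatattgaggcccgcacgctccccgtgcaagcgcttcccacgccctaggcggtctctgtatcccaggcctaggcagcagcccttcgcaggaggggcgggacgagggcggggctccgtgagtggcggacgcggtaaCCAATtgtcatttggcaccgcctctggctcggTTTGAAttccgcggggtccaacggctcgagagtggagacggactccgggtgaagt
Ncapd2: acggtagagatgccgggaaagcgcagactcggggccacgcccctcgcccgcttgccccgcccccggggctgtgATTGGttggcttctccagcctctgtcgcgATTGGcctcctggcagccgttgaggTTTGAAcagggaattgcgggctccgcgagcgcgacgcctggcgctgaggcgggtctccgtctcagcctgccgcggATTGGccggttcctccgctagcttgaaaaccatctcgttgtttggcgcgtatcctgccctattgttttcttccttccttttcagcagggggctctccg
Knl1: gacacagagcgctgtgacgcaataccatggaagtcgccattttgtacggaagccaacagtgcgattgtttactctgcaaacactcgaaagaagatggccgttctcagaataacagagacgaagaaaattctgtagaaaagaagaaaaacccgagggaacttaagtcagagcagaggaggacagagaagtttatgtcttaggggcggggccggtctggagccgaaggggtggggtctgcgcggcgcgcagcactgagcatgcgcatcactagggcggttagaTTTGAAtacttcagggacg
Promoter windows were found for 50 of the 59 list members, and 36 (72%) held TTTGAA on either strand, against 18.11% of 27025 RefSeq windows of the same length. CCAAT was likewise in 36 (72%), against 37.92%. A window may hold both, and the last letter of TTTGAA can be the first of ATTGG. Members with TTTGAA had a median log2 difference of −0.17, with 32 of 36 negative, and members without it −0.13, with 13 of 14 negative. For CCAAT the order was the opposite, −0.14 with it (31 of 36 negative) and −0.21 without it (14 of 14 negative). A match of letters is a description and not a binding site.

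The DNA replication genes had a median of −0.06 over 51 members, and −0.10 to 0.01 with each library left out, with 1 member at an unadjusted p below 0.05, where 9.57% of all genes had one. In the DNA damage and checkpoint list, 27 of 37 tested members were lower, and the median was −0.08 (−0.16 to −0.11 with each library left out). At an unadjusted p below 0.05, 6 were lower (16.2%) and 2 higher (5.41%), where 4.74% and 4.83% of all genes were. Chek1, the checkpoint kinase that restrains entry into mitosis, stood at 980.1 and 827 against 523 and 635 (−0.64 ± 0.16, adjusted p = 0.285). Exo1, a nuclease of mismatch repair and end resection, had 857 and 774 against 430.1 and 624 (−0.65 ± 0.20). Both were without overlap. In that list 13 members were lower and 6 higher without overlap, against 21.5% and 20.9% of all genes. Among G1 regulators Ccnd1, the gene of cyclin D1, was higher without overlap, at 139.6 and 147 against 280.0 and 212 (0.76 ± 0.36, adjusted p = 0.538), and Cdkn2b, the inhibitor p15, had 28.9 and 24.3 against 56.9 and 63.0.

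**Figure D3:**
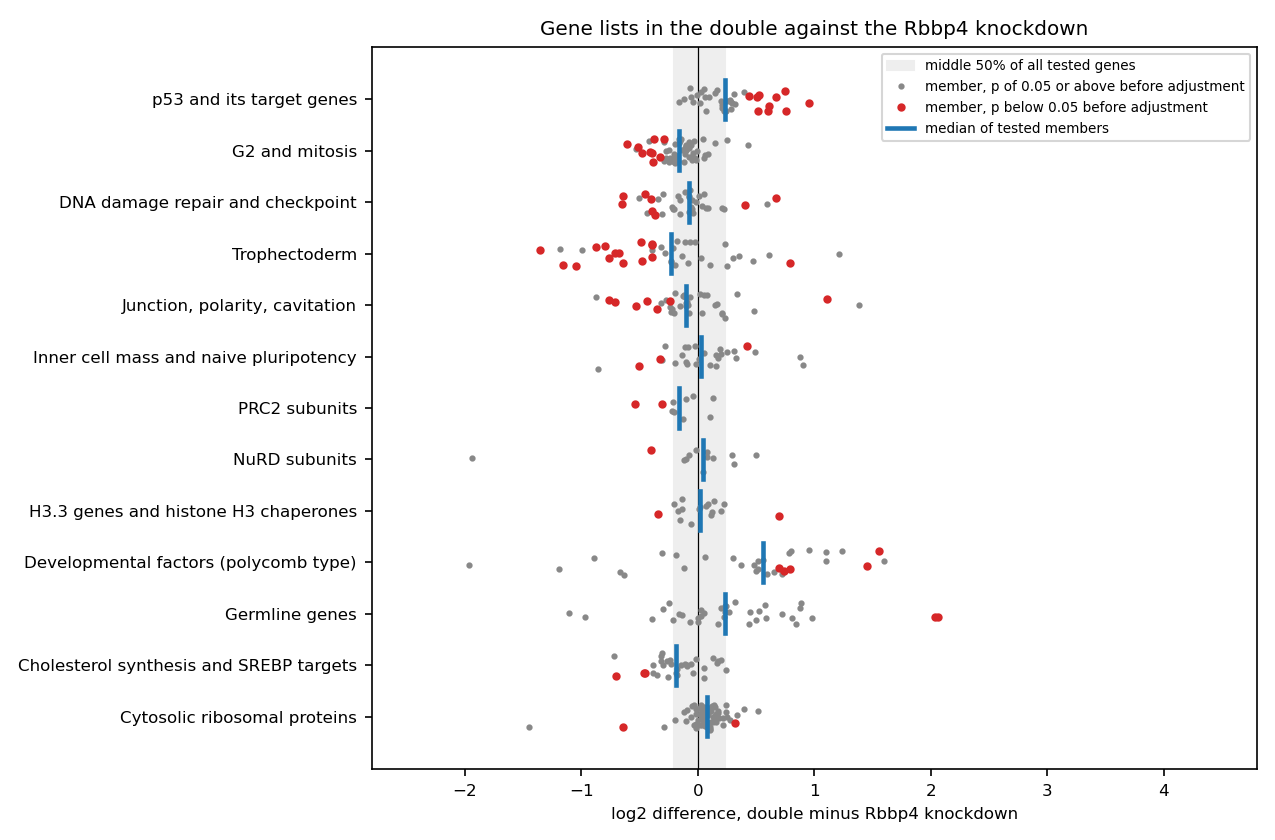
Log2 difference (double minus Rbbp4 knockdown, horizontal axis) of each tested member of 13 gene lists (rows; vertical scatter within a row is only for visibility); blue lines are medians, red points have an unadjusted p below 0.05, and the grey band holds the middle 50% of all genes tested. The p53 list lies mostly to the right (median 0.23) and the G2 and mitosis and trophectoderm lists mostly to the left (−0.16 and −0.23).

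Trophectoderm genes were mostly lower. Of 39 tested members, 29 were lower, 25 of them without overlap, and 4 were higher without overlap, against 21.5% and 20.9% of all genes. At an unadjusted p below 0.05, 14 were lower (35.9%) and 1 higher, where 4.74% of all genes were lower. The higher one was Hand1 (0.79 ± 0.18), whose values are given below. The median was −0.23, and −0.37 to −0.23 with each library left out. Rbbp7 siRNA alone gave a median of −0.51 against the control. Cdx2, the transcription factor that specifies trophectoderm, stood at 2182 and 2071 in the Rbbp4 knockdown and 1409 and 1195 in the double knockdown (−0.71 ± 0.21, adjusted p = 0.343). Gata3, which acts beside Cdx2, had 2800.1 and 2678 against 2079 and 1835 (−0.49 ± 0.13, adjusted p = 0.311). Krt18, an epithelial keratin, had 3217 and 2395 against 1545 and 1959 (−0.67 ± 0.19), and its partner Krt8 5272 and 4737 against 3326 and 4333 (−0.40 ± 0.19). Atp1b1, a sodium pump subunit needed for the blastocyst cavity, had 852 and 762 against 504 and 446 (−0.76 ± 0.14, adjusted p = 0.18). All 5 were without overlap. Among junction, polarity and cavitation genes, 24 of 37 were lower (median −0.10, −0.16 to −0.07 with each library left out), such as the desmosome gene Dsp at 3089 and 2590.4 against 1844 and 2085, while Cdh3, the gene of P-cadherin, was higher at 163 and 178 against 349 and 389.6 (1.11 ± 0.25, adjusted p = 0.243).

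Of 28 tested pluripotency genes 15 were higher, and the median was 0.03 (−0.05 to 0.07 with each library left out). Nanog, a core factor of naive pluripotency, was lower in the double knockdown, at 6545 and 6051 against 4192 and 4692 (−0.50 ± 0.11, adjusted p = 0.243), and both double knockdown libraries lay below all 6 others. With Rbbp7 siRNA alone Nanog stood at 9093 and 10156 against 6698 and 6322 in the control (0.56 ± 0.11). The difference between these opposite differences was −1.07 ± 0.16, with an adjusted p of 0.369. Pou5f1, the gene of OCT4, overlapped between groups at 15078 and 16458 against 15910.2 and 13734. Sox2 had 208 and 129 against 67.5 and 120.1, without overlap but with a wide error (−0.86 ± 0.62). Gata6, a primitive endoderm factor, overlapped at 6172 and 6816 against 6222 and 5592, and Sox17, a later factor of that lineage, had 44.8 and 20.3 against 84.0 and 35.8.

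Of 91 listed developmental transcription factors that are typically held silent by polycomb, 85 were in the table and 31 passed the filter on low values. A gene could pass through its level in the double knockdown alone, so the members that passed are no fair sample of the list. Sox9, a developmental regulator of cartilage and gonad, was at 125 and 89.6 in the Rbbp4 knockdown and 338 and 290.3 in the double knockdown (1.56 ± 0.30, adjusted p = 0.187), while the other 6 libraries did not exceed 125. Hand1, a regulator of trophoblast giant cells and heart, had 528 and 569.7 against 1114 and 812 (0.79 ± 0.18, adjusted p = 0.243). Nkx6-2, a neural factor, had 276 and 249 against 460.0 and 419 (0.74 ± 0.17, adjusted p = 0.243). With Rbbp7 siRNA alone Nkx6-2 was also higher, at 394 and 416 against 202 and 235 in the control (0.89 ± 0.17). In the control Hand1 was at 722 and 651, so its Rbbp4 knockdown values were the lowest of the 4 groups. Germline genes kept silent by DNA methylation, 36 of 47 past the filter, included Tuba3a, a testis tubulin, at 26.1 and 47.1 against 169 and 129 (2.04 ± 0.39, adjusted p = 0.187). Dnmt1, the maintenance methyltransferase, overlapped between groups at 1241 and 1436 against 1339.5 and 1284.

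Among metabolic genes, Ldha, lactate dehydrogenase A, stood at 612 and 619 against 1290.0 and 1846 (1.32 ± 0.25, adjusted p = 0.18), and Pfkfb3, which raises the activator of phosphofructokinase, at 158 and 179 against 356 and 325 (1.01 ± 0.31), while the glycolysis list had a median of 0.10, −0.0016 without Rbbp4 knockdown replicate 1 and 0.18 without double knockdown replicate 1. The fatty acid elongase gene Elovl3 had 18.6 and 41.6 against 196 and 159 (2.62 ± 0.57, adjusted p = 0.239), and Elovl6, another elongase, 4603 and 3997 against 2434 and 3105 (−0.64 ± 0.16). Scd1, the stearoyl-CoA desaturase, had 9701 and 9276 against 5213 and 6486 (−0.71 ± 0.16, adjusted p = 0.243). Of 32 tested genes of cholesterol synthesis and SREBP targets 25 were lower, with a median of −0.18, but the median was −0.05 without double knockdown replicate 1 and −0.33 without replicate 2. Of 76 tested ribosomal protein genes 60 were higher by a small amount (median 0.08, 0.04 to 0.10 with each library left out); many have near-identical copies.

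Single genes of other lists had opposite directions. Dusp1, an immediate early phosphatase, had 307 and 384 against 987 and 679.9 (1.25 ± 0.27, adjusted p = 0.226), while Nr4a1, an immediate early nuclear receptor, had 209.8 and 202 against 96.0 and 113 (−0.98 ± 0.20, adjusted p = 0.22). Irf3, which relays nucleic acid sensing, had 129.7 and 69.8 against 38.1 and 44.7 (−1.19 ± 0.36). Pcbp4, an RNA-binding protein, had 49.6 and 69.2 against 12.2 and 15.2 (−2.03 ± 0.39, adjusted p = 0.187).

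The difference with Rbbp7 siRNA was set beside the same difference without Rbbp4 siRNA, Rbbp7 knockdown minus control. The pairs share no library. The spread of each gene was estimated from all 8 libraries for both pairs, so their p-values are not independent. In Rbbp7 knockdown minus control, 3 genes were called (0.0239%), and 1200 had an unadjusted p below 0.05 (9.55%). Among the 1203 genes with an unadjusted p below 0.05 here (9.57%), 799 (66.42%) had the same sign in both pairs, against 56.34% of all genes tested. Across the 12565 genes, which are not independent replicates, the 2 differences had r = 0.09. Of those 1203 genes, 195 also had an unadjusted p below 0.05 with the same sign without Rbbp4 siRNA. Over all 12565 genes, 823 had an unadjusted p below 0.05 without Rbbp4 siRNA and the same sign in both pairs. The test of the difference between the pairs called 1 gene (0.00796%), Ndufa9 (adjusted p = 0.00344, limma with Benjamini-Hochberg adjustment), and 815 had an unadjusted p below 0.05 (6.49%).

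The plot of both differences separates named genes by how they stood in each pair. Enpep had −1.05 ± 0.14 with and −1.62 ± 0.14 without Rbbp4 siRNA, Id2 −1.35 ± 0.21 and −1.17 ± 0.21, and Krt18 −0.67 ± 0.19 and −1.51 ± 0.19, so that each had the same sign in both. For Klhdc7a the values were 1.26 ± 0.18 and 0.05 ± 0.18, with a difference of 1.21 ± 0.25 (adjusted p = 0.593). Hspb1 had 0.90 ± 0.16 and −0.31 ± 0.16, and Sox9 1.56 ± 0.30 and −0.38 ± 0.30 (difference 1.94 ± 0.43, adjusted p = 0.593). No adjusted p of these differences passed, so a gene that stands out in 1 pair is not shown to respond differently in the other.

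**Figure D4:**
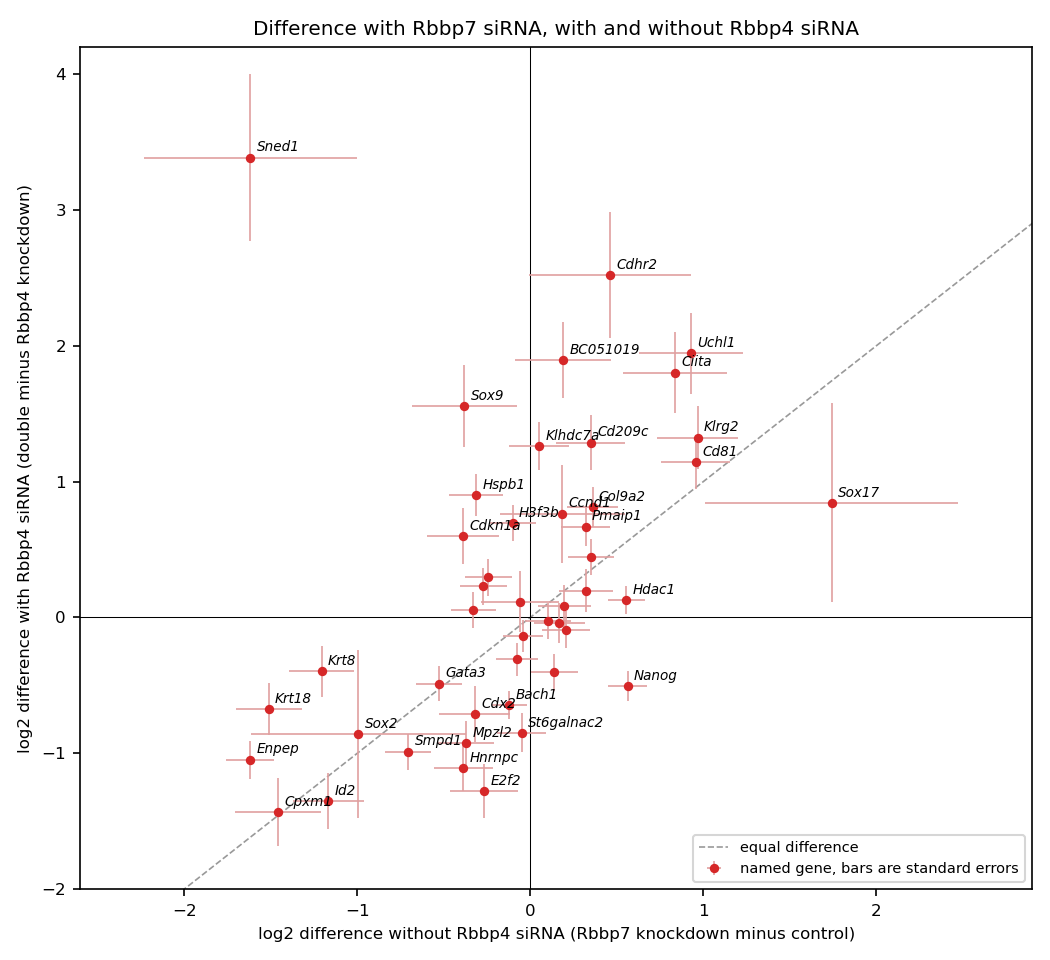
Log2 difference with Rbbp7 siRNA in embryos that also received Rbbp4 siRNA (vertical axis, double minus Rbbp4 knockdown) against the same without Rbbp4 siRNA (horizontal axis, Rbbp7 knockdown minus control), for named genes; bars are standard errors and the dashed line marks equal differences. Enpep, Id2 and Cpxm1 are negative on both axes. Klhdc7a, BC051019 and Sox9 are above 1 on the vertical axis and below 0.2 on the horizontal one. Btbd6, listed at 0 in both double knockdown libraries, and Zfp934, at 0 and 7.77 there, are not drawn. Zfp934 shares near-identical sequence with 3 genes of the table, so its value is uncertain.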

How the data were processed

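Polyadenylated RNA of late morulae was captured on oligo(dT) beads and sequenced, per the labels' protocols. The submitters' processing notes list Trimmomatic, HISAT2, featureCounts, DESeq2 and build GRCm38, with versions, settings and use of strand not given in the sources used here. What the authors deposited is a normalized signal per gene (DESeq2, per the name of the table), not counts; 41.5% to 63.8% of low values per library lay within 0.05 of a whole multiple of a common step, so reads were not recovered and no count model was fitted. Of 19058 identifiers 18942 matched a symbol.

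Groups were taken from titles. Values were analysed as log2(value + 1), which understates the change of low genes. The filter (mean of 10 or more over 8 libraries) kept 12565 genes and left out 6493. Testing was with limma 3.58.1 in R 4.3.3: 1 mean per group over all 8 libraries, an intensity trend, 4 residual and 5.18 prior degrees of freedom, two-sided, Benjamini-Hochberg over all genes tested, called at an adjusted p below 0.05. The script was tested on simulated data. Gene coordinates are from GENCODE M21 (GRCm38). Genes sharing 97% or more of at least 200 bases with another gene of the table, genes that overlap on the genome included, were treated as uncertain.

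The comparison, the 46 gene lists (40 with at least 5 tested members) and the rule for naming genes were chosen with earlier results of these data known. Named were Rbbp4, Rbbp7, 27 fixed genes, called genes, genes with the smallest p up to 12 per direction (no predicted genes, no overlap between groups, mean of at least 50 in the higher group), and the 3 members of each list with the smallest p; a few of these genes are not reported here. Lists are described by counts and medians, with no test. Alternatives varied scaling, pseudocount, filter, libraries fitted, prior, replicate block and each library left out. Promoter windows were matched by symbol, using the first listed start.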

Additional observations from a re-analysis of the deposited data

Results flagged for a closer look

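Ndufa9 was picked out because its difference with Rbbp7 siRNA was not the same with and without Rbbp4 siRNA, by a test of that difference: 8.97 on the log2(value + 1) scale (adjusted p = 0.00344, limma with Benjamini-Hochberg adjustment). The size depends on the added 1, because each Rbbp4 knockdown library lists the gene at 0. It stood at 476 and 323 in the double knockdown, 276 and 468 in the control and 459 and 172 in the Rbbp7 knockdown. In all, 5 genes were listed at 0 in both Rbbp4 knockdown libraries with a mean of at least 50 in the double knockdown.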

How the results depend on the processing

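Under 20 alternatives Rbbp7 and Ndufa9 were called each time, and in 8 of the 21 fits they were the only genes called. The number of called genes was 4 with the control libraries left out of the fit, and 2 to 13 with each library left out in turn: 13 without double knockdown replicate 2 (the Y-linked Ddx3y and Usp9y among them), 9 without Rbbp4 knockdown replicate 2, 7 without double knockdown replicate 1, and 4 without Rbbp4 knockdown replicate 1 or either control replicate. Called higher genes numbered 2 with no filter on low values, with the 4 libraries alone or with no intensity trend, and 1 to 7 with each library left out. Called lower genes numbered 2 with a pseudocount of 0.5, group weights or a robust prior, 3 with the control left out, and 1 to 7 with each library left out. The test of the difference between pairs called 1 gene under every alternative fit of all 8 libraries and 1 to 21 with each library left out, 21 without control replicate 2 and 6 without Rbbp7 knockdown replicate 1. The cause of these shifts was not tested.

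Replicate numbers did not pair the samples (r of same-number deviations 0.01 between the 2 groups), and with the replicate block 2 genes were called. Of named genes, 11 values passed the test under an alternative only, among them Btbd6 in 6 and Klhdc7a, Cd209c, Enpep and Zfp934 without double knockdown replicate 2, where the lone library left in that group is assumed to vary like the other groups. The sign reversed under some alternative for 13 named genes, none of them called. With quantile normalization Dnmt1 became 0.0078 and Ovgp1 −0.049. With a library left out the log2 difference ranged from −0.093 to 0.22 for Rbbp4, −0.20 to 0.43 for Asf1a, −0.20 to 0.11 for Eed, −0.019 to 0.19 for Cdk1, −0.20 to 0.014 for Pou5f1, −0.13 to 0.080 for Dnmt1, −5.12 to 1.24 for Gatad2b, −0.13 to 0.38 for mt-Co2, −0.018 to 0.30 for Tubb4b, −0.42 to 0.48 for Ovgp1, −0.88 to 0.19 for Odf2l, −0.14 to 1.08 for Fbn1 and −0.26 to 0.97 for Thy1.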

Other observations

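Other genes were listed at 0 in both libraries of 1 group. In the Rbbp4 knockdown these were, with a mean of at least 50 in the double knockdown, Ndufa9, Tusc3, Gm10662, Pfkfb4 and Gm10697; in the double knockdown, with a mean of at least 50 in the Rbbp4 knockdown, Btbd6, Rprd2, Ccdc66, Ogdhl, Gm6565, Msantd4 and Ddx41. Between other pairs of groups such genes numbered 1 to 10. These were named after their values were seen.

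The 13 mitochondrially encoded genes had a median of 0.09 in this comparison, −0.09 in double knockdown replicate 1 and 0.25 in replicate 2, each relative to the Rbbp4 knockdown mean. Of the 2-cell stage list 16 of 27 passed the filter, and it includes Gm8300 at 38.04 and 9.43 against 129 and 48.3, which has near-identical copies. Tle6, a maternal gene of the subcortical complex, stood at 52.7 and 32.7 against 132 and 80.0 (1.29 ± 0.42, adjusted p = 0.408).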
